A study of Homo sapiens with 12 samples.

Results

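In K1 cells, 380 transcript regions carried an m6A peak in every library made after FTO knockdown and in no control library. They were found by pooling the peaks of 6 deposited lists, 3 from si-FTO and 3 from si-NC cells, joining intervals that shared at least 1 bp into 12995 merged regions, and keeping those with a peak in si-FTO 1, 2 and 3 and none in si-NC 1, 2 and 3. The 380 regions made up 2.92% of the merged regions, and they lay in 353 genes, or 4.63% of the 7623 genes with a peak in any list. The members were chosen by the presence or absence of a listed peak in these 6 libraries, so every value that follows is a description and none was tested as a difference between si-FTO and si-NC cells.

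K1 is an established papillary thyroid cancer (PTC) cell line. The cells had received a control siRNA, given as si-NC1 for all control libraries, or an siRNA against FTO, given as si-FTO, and each group had 3 m6A immunoprecipitation (IP) libraries and 3 input libraries. No time after transfection, clone or other treatment is given in the labels, and no source used here says which FTO siRNA went into which library. The libraries of a group are not stated to be separate cultures, so the spread between them may be technical.

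N6-methyladenosine (m6A) is written onto mRNA by the METTL3 and METTL14 complex, often near stop codons, and is bound by reader proteins that alter splicing, translation and decay. FTO is a demethylase that removes it, along with related methyl marks. In MeRIP-seq, fragmented RNA is captured with an antibody against m6A, and a peak marks a part of a transcript where IP reads exceed those of the input; a peak that just misses the caller's threshold is simply not listed.

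The study's designed oligonucleotides are shown because they define the knockdown and the PCR assay of APOE that the study went on to run. The place of the primers relative to the APOE region described below was not mapped here. In the siRNAs, capitals mark the letters before the closing tt of each strand as the study lists it, and the primers, which the study lists for the m6A assay of APOE, are in capitals throughout. FTO lies on chromosome 16 and APOE on chromosome 19.
si-FTO-1: TCACCAAGGAGACTGCTATtt
si-FTO-2: CTAGGGTTTTGCTTCCAGAAtt
APOE (m6A) forward primer: CTGGCACTGGGTCGCTTTTG
APOE (m6A) reverse primer: AGGCCTTCAACTCCTTCATGGT

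Each list was a set of peaks with a fold enrichment of IP over input, a score that rises as the p-value falls, and a false discovery rate (FDR), each the authors' value within that list and not on a scale shared with another list. The lists held 7921 to 8454 peaks in si-FTO and 8429 to 8999 in si-NC cells. Depth is unknown, since no read counts were used here. The median FDR was 41.15% to 47.22% in the si-FTO lists and 47.45% to 99.58% in the si-NC lists, and the highest peak number ran from 56265 to 57034 in si-FTO and from 68972 to 98175 in si-NC. Peak calling thus moved with the group, and its part in the presence or absence of the regions was not tested. A change in methylation and a change in mRNA level cannot be told apart from presence in a list. FTO mRNA itself had a peak in all 6 lists, which does not measure the knockdown.

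The 3 peaks of a si-FTO-only region largely coincided. Each region held exactly 1 peak in each si-FTO list. Those peaks had at least 1 base in common in all 380 regions (100%), and they were assigned to the same transcript in 377. Merging joined intervals that shared at least 1 bp, so a common base follows largely from the rule. The interval was identical to the base in 248 regions (65.26%), took 2 forms in 36 and 3 forms in 96. In the 4737 regions shared by all 6 lists the si-FTO intervals were identical in 73.49%, and in the 416 regions of the opposite pattern (3.2% of the merged regions) the si-NC intervals were identical in 63.46%. Identical edges do not show identical read profiles.

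Within their own lists these were mostly low peaks. The median fold enrichment of the 380 peaks was 5.545, 5.47 and 5.49 in si-FTO 1, 2 and 3, beside 6.89, 6.89 and 6.955 over every peak of the same lists. Expressed as a percentile, the place of a peak in its list ordered by fold enrichment, with tied peaks given their mean place, the median region stood at 30.05 ± 0.44 (SD, n = 3 lists), and by score at 26.86 ± 0.68 (SD, n = 3 lists). Between 156 and 159 regions lay under percentile 25 of fold enrichment in each list, and 15 to 30 lay over percentile 75. Their median FDR was 56.65%, 63.575% and 61.2% in si-FTO 1, 2 and 3, above the median of each list. In 54 regions the fold enrichment was above the middle of the list in all 3 libraries, and in 78 it was under percentile 25 in all 3.

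The values of a single region varied modestly among the si-FTO lists. The highest of its 3 fold enrichments was a median of 1.302 times the lowest, at most 1.5 times in 280 regions (73.68%) and over 2 times in 14. FOXJ2, a forkhead transcription factor gene, had the widest spread, at 4.56, 11.47 and 3.92 in si-FTO 1, 2 and 3, so that 1 list was high and 2 were low. CEP112, which encodes a centrosomal protein, followed at 8.83, 5.77 and 3.46. Ranked over the 380 regions, the fold enrichments of 2 lists had a Spearman correlation of 0.694, 0.66 and 0.656 for lists 1 and 2, 1 and 3, and 2 and 3. These points share their regions and transcripts, and the correlations are given as a description.

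The rank of a region rose with the number of si-NC lists that also had a peak there. Among regions that all 3 si-FTO lists share, the median percentile of fold enrichment in si-FTO 1 was 30.5 for the 380 regions with no si-NC peak, 34.2 for 317 regions with a peak in 1 si-NC list, 42.6 for 595 with 2 and 63.5 for 4737 with 3. The same order held in si-FTO 2 (30.1, 38.9, 41.1 and 65.5) and in si-FTO 3 (29.6, 35.5, 40.8 and 64.5). Peaks lengthened along the same order, from a median of 393 bp through 461 and 558 to 807 bp in si-FTO 1. The si-FTO-only regions were thus at the low end of a graded series in strength and length.

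**Figure D1:**
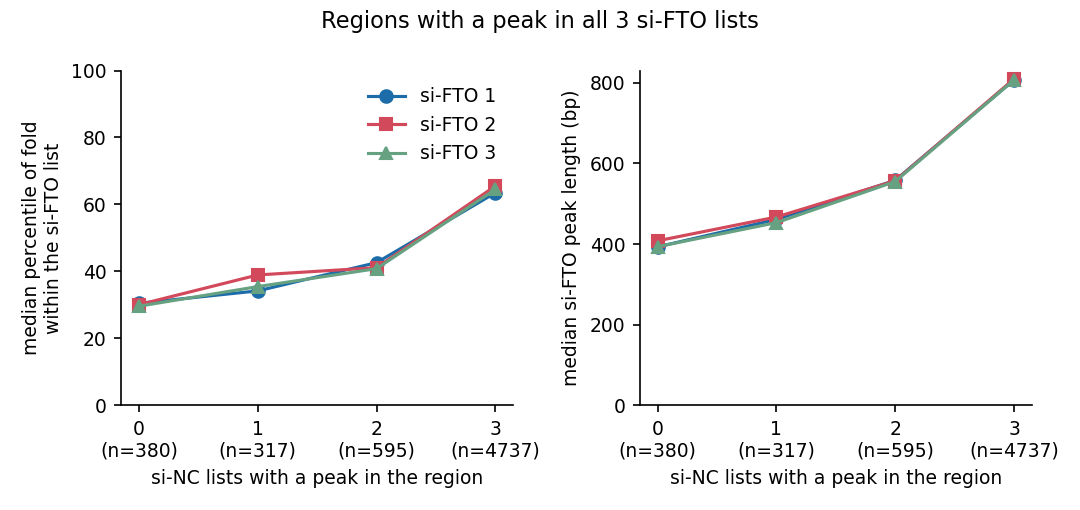
Median percentile of fold enrichment within the si-FTO list (left, 0 to 100) and median si-FTO peak length in bp (right) for regions that all 3 si-FTO lists share, by the number of si-NC lists with a peak there (n, regions). Each line is 1 si-FTO list, and all 3 rise from left to right, from percentiles of 29.6 to 30.5 at 0 si-NC lists to 63.5 to 65.5 at 3.

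The rule turns on the presence of a si-NC peak, and the rank of a member by fold percentile is a separate order. The member lowest in that rank was in PJA2, which encodes a RING ubiquitin ligase, at 5.19, 2.33 and 2.72 in si-FTO 1, 2 and 3. Above it came the nuclear envelope linker gene SYNE1 (3.36, 2.42 and 2.64), GTF2E2, a general transcription factor subunit gene (2.39, 4.71 and 3.24), the spectrin gene SPTAN1 (3.18, 3.82 and 2.49) and EIF3C. Just outside the rule, by a single si-NC list, stood the 317 regions with a peak in 1 si-NC list. The si-NC peak was in si-NC 1 in 108 of them, in si-NC 2 in 116 and in si-NC 3 in 93. In these the si-NC peak covered a median of 449 bp of the si-FTO peaks and none covered under 100 bp, so that raising the overlap needed to 100 bp left the 380 regions as they were. That lone si-NC peak stood at a median percentile of 15.88 by score in its own list. The smallest overlap was 200 bp, in TP53BP2 and in the cytoskeletal linker gene MACF1. The MACF1 region lay on chromosome 1 from 39847625 to 39847824, where the folds were 5.57, 6.65 and 5.59 in si-FTO and 2.74 in si-NC 1.

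SRSF11, which encodes a serine and arginine rich splicing protein, led the regions by a wide margin. Its region lay on chromosome 1 of hg19 from 70716291 to 70717701 (1411 bp, transcript NM_004768), and the fold enrichment was 38.08, 27.32 and 29.58 in si-FTO 1, 2 and 3. All 3 peaks had a score of 3100, which put them at percentile 93.4 to 93.5 by score, stood above percentile 98 of fold enrichment, and the gene had no si-NC peak anywhere, the nearest being 115598 bp away under HHLA3. AC026740.1 followed among genes without a si-NC peak, on chromosome 5 from 668410 to 668839, with 17.14, 24.34 and 15.61. A si-NC peak listed under the neighboring gene TPPP lay 2998 bp from it. IQCD had 13.45, 13.89 and 15.19 on chromosome 12 from 113633246 to 113633694, and a further region, from 113645243 to 113646314, with 8.57, 6.47 and 5.26.

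RPL22, a protein of the large ribosomal subunit, had folds of 14.03, 11.34 and 12.27 over 1797 bp on chromosome 1 from 6245080 to 6246876. Its 3 folds were close, while its scores were 3100, 153.88 and 1199.49, and thus far lower in si-FTO 2. SOWAHD, on chromosome X from 118892576 to 118894151, had 11.12, 10.92 and 12.64. Neither of these genes had a si-NC peak, and for both the nearest si-NC peak lay over 50000 bp away.

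Other leading regions lay in genes that did have m6A peaks in control cells at another site. TICRR, which encodes treslin, a factor for the start of DNA replication, had 17.42, 19.24 and 16.41 in si-FTO 1, 2 and 3 on chromosome 15 from 90166854 to 90169017 (2164 bp, the same interval in all 3). Its site shared by all 6 lists, 47383 bp away from 90118818 to 90119471, had 6.03, 6.78 and 4.75 in the same si-FTO lists, so that here the si-FTO-only site was the higher in every list. RRP1, a ribosomal RNA processing gene on chromosome 21, had 12.91, 14.64 and 14.43 over 287 bp, and peaks elsewhere in all 3 si-NC lists. HIP1R, which encodes a clathrin-binding endocytic protein, had 12.54, 14.0 and 15.98, TNFAIP2, a TNF-inducible gene, had 11.58, 12.68 and 14.04, and the zinc finger gene ZNF146 had 9.83, 11.89 and 9.79. All these folds were above the median of their lists.

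**Figure D2:**
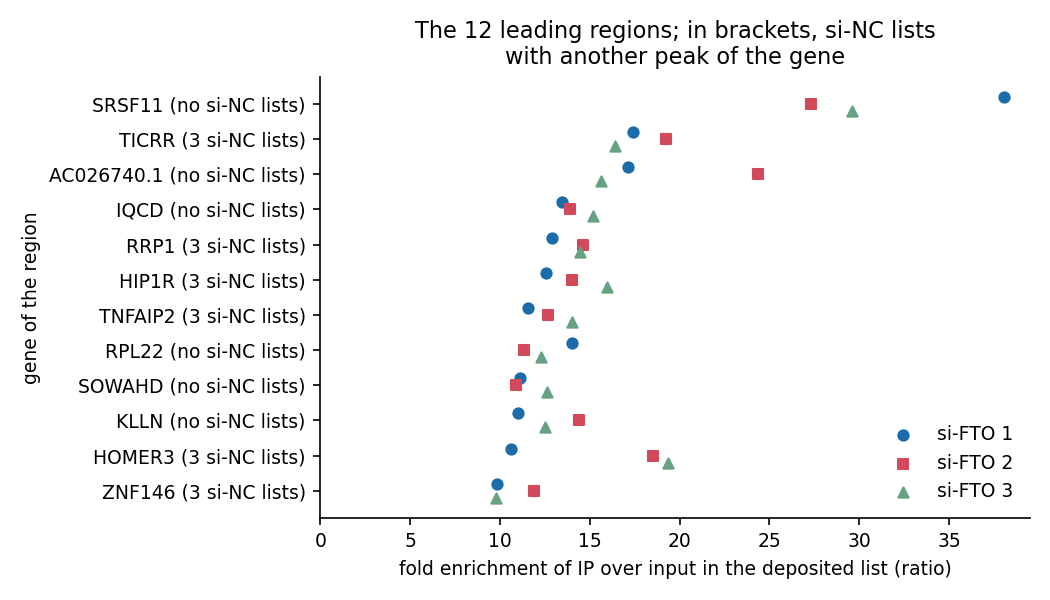
Fold enrichment of IP over input (horizontal axis, ratio from 0) of the 12 leading regions in si-FTO 1, 2 and 3 (points), ordered by their lowest within-list percentile, with the number of si-NC lists that hold another peak of the gene in brackets. SRSF11 lies between 27.32 and 38.08, and the region in twelfth place, ZNF146, between 9.79 and 11.89.

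The genes fell into 2 classes by their control peaks. Of the 353 genes, 195 (55.24%, exact Clopper-Pearson 95% interval 49.89% to 60.51%) had a si-NC peak elsewhere in the gene, 155 of them in all 3 si-NC lists, 19 in 2 and 21 in 1. The other 158 had none in any si-NC list. The interval covers counting only, since the rule chose these genes. By list, 174, 171 and 179 of the 353 genes had a peak in si-NC 1, 2 and 3, beside 5639, 5628 and 5954 of all 7623 genes with a peak. The rule leaves out regions with a si-NC peak, and this difference was not tested. By the rule's counterpart at the level of the gene, 174 genes (2.28% of those with a peak) had peaks in all si-FTO lists and no si-NC list, and these include the 158. Outside the chosen regions, the 353 genes had 371, 369 and 377 peaks in si-FTO 1, 2 and 3 and 352, 348 and 366 in si-NC 1, 2 and 3. The genes with such a peak numbered 170 to 174 in the si-FTO lists and 171 to 179 in the si-NC lists, ranges that overlap. Over all genes the si-FTO lists held 7921 to 8454 peaks and the si-NC lists 8429 to 8999, mostly more in si-NC, though these ranges overlap too.

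The regions of the 2 classes differed in length and hardly in rank. In the genes without a si-NC peak the 170 regions had a median length of 777 bp, 39.41% were at least 1000 bp long and 11.76% at most 250 bp. In the genes with a si-NC peak elsewhere the 210 regions had a median of 303 bp, with 14.29% at least 1000 bp and 34.29% at most 250 bp. The median of the lowest fold percentile over the 3 si-FTO lists was 18.43 and 19.52. Over all 380 regions the median length was 423 bp, the quartiles 252 and 1017 bp, and the range 200 to 5536 bp, where the smallest peak in the lists is 200 bp. The opposite pattern had a median of 630 bp and regions in all 6 lists 840 bp.

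**Figure D3:**
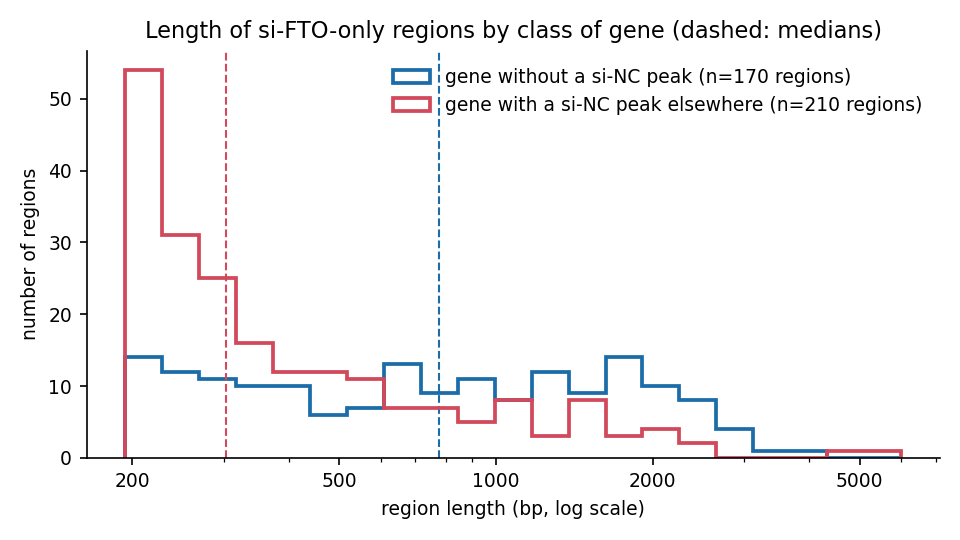
Number of si-FTO-only regions (vertical axis) by length in bp (horizontal, log scale) for the 170 regions in genes without a si-NC peak and the 210 in genes with one elsewhere; dashed lines mark the medians of 777 and 303 bp. The regions in genes with a si-NC peak gather near 200 bp, and the others spread over a wider range.

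The longest regions reached across several kilobases. POGK, a gene of transposon origin with a KRAB domain, had 5536 bp on chromosome 1 from 166818175 to 166823710, at 11.09, 12.07 and 9.27. DBNL, an actin-binding adaptor gene, had 4838 bp at 6.35, 4.91 and 6.13, and MSRB3, a methionine sulfoxide reductase gene without a si-NC peak, had 3753 bp at 6.98, 6.92 and 6.96. ABAT, which encodes GABA transaminase, and KIAA1683 followed with 3239 and 2935 bp. At the other end DST, which encodes the cytoskeletal linker dystonin, F3, the gene of coagulation tissue factor, and PHACTR2 had 200 bp each, and BTN3A1 and WSCD1 had 201 bp. All 5 of these genes had si-NC peaks elsewhere, and DST had 33 of them over the 3 si-NC lists.

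In genes with both kinds of site, the si-FTO-only site was usually the weaker. A site with a peak in all 6 lists stood in 136 of the 353 genes (38.5%), at a median distance of 9192 bp. Over all 7623 genes with a peak, 3541 had such a site, a larger share than among the 353. With the highest site of each kind taken, the all-6 site had the higher fold percentile in all 3 si-FTO lists in 109 genes (80.15%), in 2 lists in 11, in 1 list in 10 and in none in 6, and the median difference was 41.34 percentile points. Taking the highest favors the kind with more sites; in the 83 genes with 1 site of each kind, the all-6 site was higher in all 3 si-FTO lists in 59 (71.08%), with a median difference of 33.95 points. These values come from within the same si-FTO lists. The 2 kinds of site were chosen by presence in the lists, and presence in more lists goes with higher rank. Over all genes, the median fold percentile in si-FTO 1 was 63.5 for all-6 regions and 30.5 for si-FTO-only regions. The order within genes is therefore tied to the selection and is no separate result about these genes.

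PRRC2C had 1 of the widest gaps, with 5.18, 4.28 and 4.63 at the si-FTO-only site and 102.89, 87.4 and 86.62 at the all-6 site. AATF, which encodes an apoptosis antagonizing transcription factor, had 4.46, 4.12 and 4.25 against 51.17, 38.79 and 49.49. Both genes thus had a dominant site in all 6 lists and a minor one in the si-FTO lists. The 6 genes with the reverse order in all 3 lists were TICRR, PLK4, GBP2, TNC, RP1L1 and PLXNA1. PLK4, the kinase that starts centriole duplication, had 9.5, 10.94 and 9.54 at the si-FTO-only site and 8.29, 5.76 and 8.0 at the all-6 site. TNC, the extracellular matrix glycoprotein tenascin C, had 6.33, 6.98 and 6.82 against 4.65, 5.38 and 5.32.

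**Figure D4:**
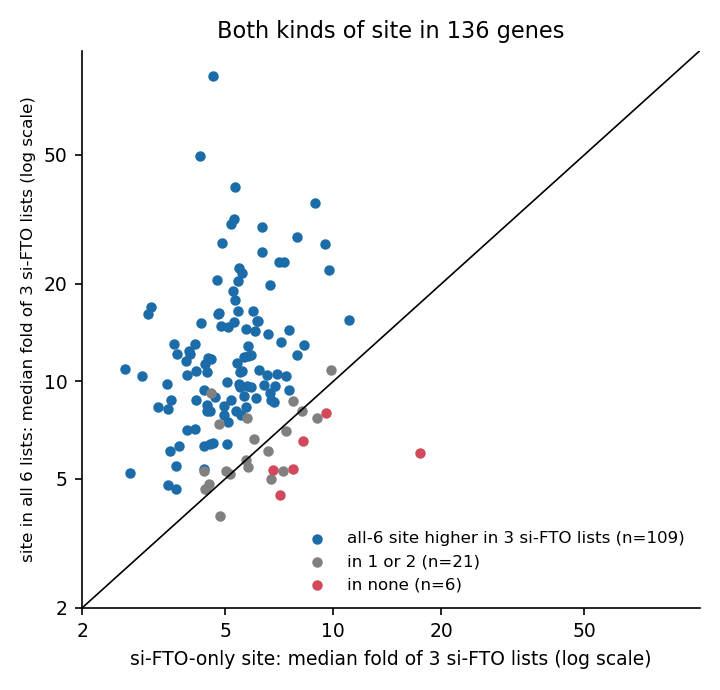
Median fold enrichment over the 3 si-FTO lists at the si-FTO-only site (horizontal, log scale) and at the site with a peak in all 6 lists (vertical, log scale) for the 136 genes with both; each point is a gene, and the line marks equal values. The all-6 site is the higher in all 3 lists in 109 genes and the lower in all 3 in 6.

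Most regions were far from any control peak, and a few touched one. The median distance to the nearest si-NC peak was 21298 bp, with quartiles of 5731.75 and 73735.2 bp; in 130 regions it was over 50000 bp, in 89 at most 5000 bp, in 8 at most 500 bp and in 4 under 100 bp. The nearest si-NC peak was listed under the same gene in 189 regions (49.7%). Of the 89 with a si-NC peak within 5000 bp, 16 had it under another gene name, and 13 of the 89 were in a gene with no si-NC peak of its own.

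HOMER3, a synaptic scaffold gene, had peaks of the 2 groups side by side. All 3 si-FTO peaks spanned 19051130 to 19051575 on chromosome 19 under ENST00000599097, with 10.63, 18.52 and 19.36, and all 3 si-NC peaks spanned 19050660 to 19051113 under NM_001145722, with 15.97, 19.19 and 16.46, ending 16 bp away. The intervals of the 2 groups did not overlap. Whether peak calling used strand is not stated in the sources, and the part of gene or transcript assignment in such neighbors was not tested. MZT1, a gamma-tubulin ring complex gene on chromosome 13, had peaks from 73301662 in si-FTO at 7.73, 6.43 and 8.09, and 103 bp beyond them peaks listed under BORA, an Aurora kinase cofactor, at 10.61 in si-NC 1 and 8.95 in si-NC 3. SHPRH, a DNA damage tolerance ubiquitin ligase gene on chromosome 6, had 6.48, 14.44 and 9.54 in si-FTO, and 59 bp away si-NC peaks under another transcript of the gene at 8.63 in si-NC 1 and 5.52 in si-NC 3. LOC728392 had si-NC peaks 80 bp away in si-NC 1 and 3. Without the 8 regions that had a si-NC peak within 500 bp, 372 regions remained.

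Of the 353 genes 13 (3.68%) also had a region of the opposite pattern: ACACB, ADIPOR1, EBF1, HIP1R, HOMER3, ID4, MACF1, PCNT, PLXNA1, PTPRJ, RASA3, SCN8A and ZFP64. Over all 7623 genes with a peak, 404 had such a region, so the 13 do not stand out from the share of all genes. ID4, an inhibitor of basic helix-loop-helix factors, had 13.45, 11.84 and 8.78 in si-FTO from 19839441 on chromosome 6, and 13.74, 10.31 and 14.36 in si-NC from 19837601 to 19838426, which is 1014 bp away. PTPRJ, a receptor tyrosine phosphatase gene, had 5.91, 5.94 and 5.82 in si-FTO and 5.41, 5.08 and 5.38 in si-NC at sites 706 bp apart. ACACB, the mitochondrial acetyl-CoA carboxylase gene, had 9.25, 12.28 and 12.53 in si-FTO and 7.96, 6.56 and 6.6 in si-NC at sites 126177 bp apart. These pairs are single sites of their genes: PCNT had 9 further regions with a peak in all 6 lists, MACF1 had 3, and PTPRJ, PLXNA1, SCN8A and ZFP64 had 1 each.

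A set of 24 genes had more than 1 si-FTO-only region, 51 regions in all, and MACF1 and MYCBP2 were among those with 3. Of the 24, 12 had no si-NC peak, 8 had si-NC peaks in all 3 lists and 4 in 1 or 2. MYCBP2, a large ubiquitin ligase gene with 1 si-NC peak in 1 list, had 3 regions of 205 to 216 bp with folds from 4.06 to 6.51. IFIH1, the cytosolic RNA sensor MDA5, had regions of 666 and 854 bp at 4.91, 5.8 and 4.33 and at 4.89, 3.44 and 5.37, with the nearest si-NC peaks 1078715 and 1086302 bp away.

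The homeobox genes HOXA3 and MEOX1 each had a pair of regions and no si-NC peak. HOXA3 had 7.65, 4.35 and 6.61 over 1245 bp and 7.42, 7.28 and 9.46 over 646 bp, 1394 bp apart. MEOX1 had 12.53, 7.98 and 8.99 in the higher of its 2. EIF3C, a translation initiation factor subunit with a near-identical copy, EIF3CL, had regions of 371 bp each that stretched over 308270 bp of chromosome 16, at 4.22, 3.82 and 2.62 and at 4.17, 3.68 and 2.61. Since such copies can share reads, the assignment of both regions is uncertain. Among 27 pairs of regions within 50000 bp, 23 were in the same gene, and the 4 others were RAE1 with RBM38, ZSCAN22 with ZNF837, LRRC40 with SRSF11, and TIMM9 with KIAA0586.

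APOE, which encodes the lipid carrier apolipoprotein E and whose m6A primers are shown above, was a low-ranking member. Its region lay on chromosome 19 from 45411790 to 45412652 (863 bp), and its folds of 4.02, 4.78 and 3.48 put it in place 317 of 380. By fold it stood at percentile 8.23, 18.9 and 3.71 within the 3 si-FTO lists, lower in each than the median region. The nearest si-NC peak was 16843 bp away under TOMM40. The list of lipoprotein and cholesterol genes held 16 with a peak, of which APOE and APOL6, an apolipoprotein L gene, had a si-FTO-only region (12.5%, beside 4.63% of all genes with a peak). APOL6 had 3.61, 3.28 and 6.57, with si-NC peaks elsewhere in all 3 lists.

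The gene lists below were set up with earlier results of these data known, and their shares are read only beside the 4.63% of all genes with a peak. Counts of the opposite pattern in a list are read only beside the 404 of all 7623 genes with a peak that had such a region. Of 15 genes of m6A writers, erasers and readers, 16 of IL6, JAK and STAT signalling and 9 of thyroid lineage and hormone, none had a si-FTO-only region; at the share of all genes, fewer than 1 would in each. Of 19 genes of glycolysis and glucose transport 1 did (5.26%), SLC2A12, the glucose transporter GLUT12, at 4.55, 2.83 and 5.58 in place 367. Peaks in 1 to 3 genes of a short list move its share by several points.

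Immediate early and stress transcription factors had 4 of 24 genes (16.7%) with a region. None of the 24 had a region of the opposite pattern, which 404 of all 7623 genes with a peak had, and this was not tested. EGR2, a growth factor induced zinc finger factor, had 11.42, 8.99 and 9.34 over 2013 bp on chromosome 10 from 64572216. ATF3, a stress-induced factor of the ATF and CREB family, had 10.28, 10.92 and 7.29 over 1720 bp on chromosome 1 from 212792388. Neither had a si-NC peak, and both were above the median of every si-FTO list. The orphan nuclear receptor genes NR4A3 (6.32, 10.14 and 5.88) and NR4A2 (7.2, 4.9 and 5.12) had si-NC peaks elsewhere, in 3 lists and in 1.

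Chromatin regulators and Polycomb genes had 9 of 90 (10%), and 7 of the 90 had a region of the opposite pattern. BMI1, a core subunit of Polycomb repressive complex 1, had 11.06, 8.65 and 11.29 over 2273 bp on chromosome 10 from 22618142 and was the only gene of the 9 without a si-NC peak. TET2, a 5-methylcytosine dioxygenase that belongs to the same enzyme superfamily as FTO, had 6.93, 7.41 and 8.71 over 355 bp. The histone methyltransferase genes WHSC1L1 (5.82, 5.98 and 8.19) and NSD1 (5.26, 6.08 and 6.17), the acetyltransferase gene CREBBP (4.92, 5.96 and 5.43), ARID5B, SMARCC1, ARID2 and the demethylase gene KDM3A made up the rest. Of the 8 genes other than BMI1, 7 had si-NC peaks elsewhere in all 3 lists, and SMARCC1 in 2.

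**Figure D5:**
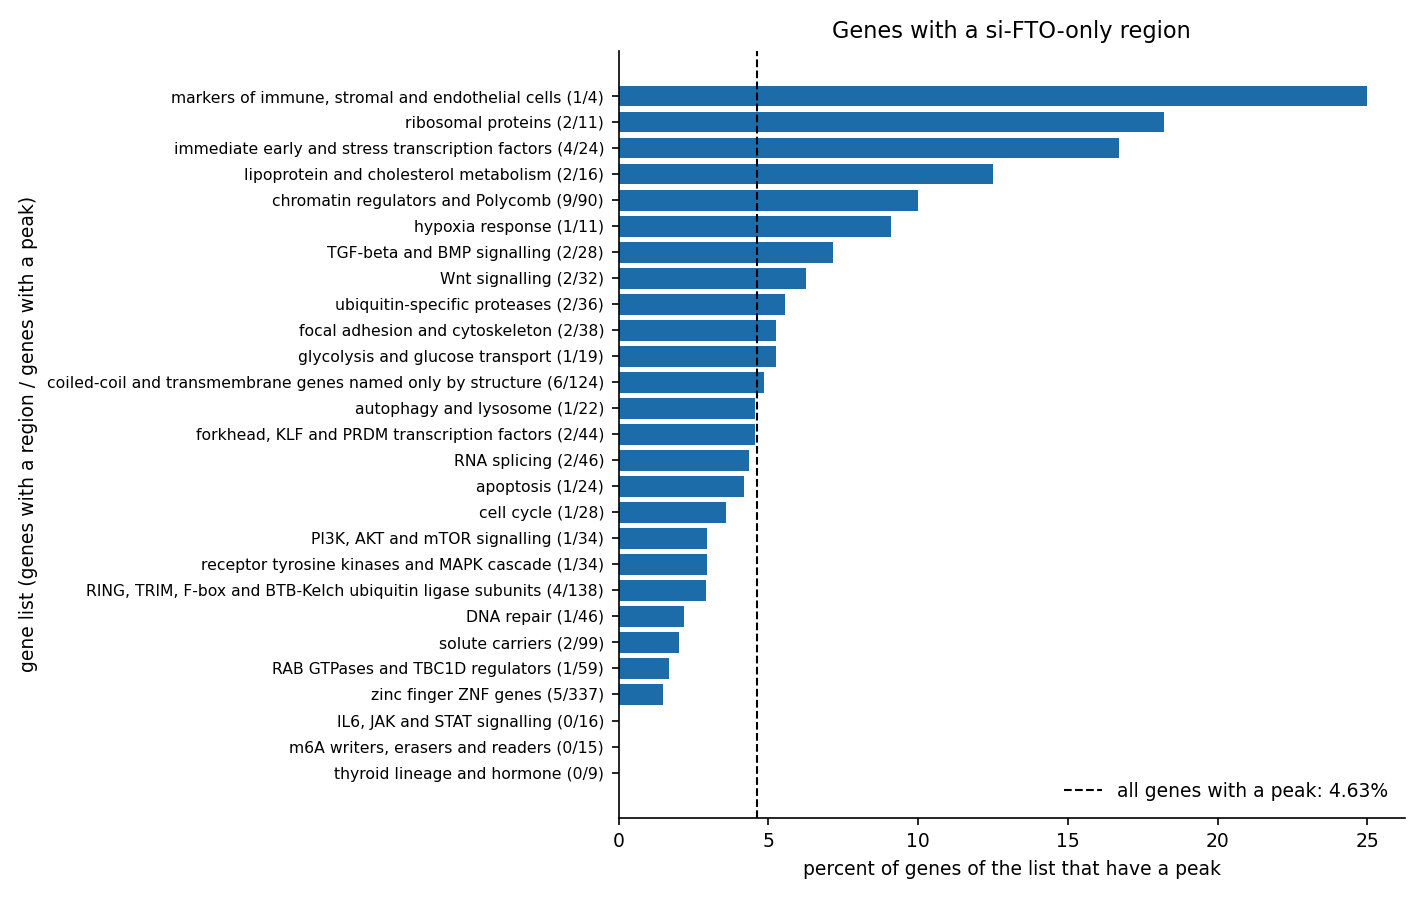
Genes with a si-FTO-only region as a percentage (horizontal axis, from 0) of the genes with a peak in each of 27 gene lists (counts in brackets); the dashed line marks the 4.63% of all genes with a peak. Shares run from 0 in 3 lists to 18.2% in the 11 ribosomal protein genes and 25% in a list of 4.

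Among ribosomal protein genes RPL22 and RPL27 (5.77, 5.48 and 5.13) were 2 of 11 (18.2%). Splicing genes had 2 of 46 (4.35%), SRSF11 and HNRNPF, which encodes a nuclear ribonucleoprotein, at 6.14, 6.93 and 6.85, and 5 of the 46 had a region of the opposite pattern. Zinc finger ZNF genes had 5 of 337 (1.48%), the RING, TRIM, F-box and Kelch ubiquitin ligase subunits 4 of 138 (2.9%), with 16 in the opposite pattern, and solute carriers 2 of 99 (2.02%), with 8 in the opposite pattern. LUM, which encodes the matrix proteoglycan lumican, was the 1 gene with a region out of 4 marker genes of immune, stromal and endothelial cells that had a peak, and it stood in place 368 at 2.87, 3.75 and 3.62.

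Signalling lists contributed single genes. The receptor tyrosine kinase gene PDGFRA had 4.57, 6.82 and 5.69, the hypoxia partner gene ARNT had 7.22, 10.35 and 4.44, and PIK3C2B, a class II PI3-kinase gene, had 7.02, 6.31 and 7.52; none of the 3 had a si-NC peak. ROCK2, a cytoskeletal kinase gene, had 10.05, 9.01 and 9.29 and a si-NC peak elsewhere in 1 list. The Wnt receptor gene FZD3 (5.71, 5.46 and 6.15), the ligand gene TGFB2 (4.23, 4.12 and 4.12) and SMURF2, a ubiquitin ligase that acts on SMAD signalling (4.43, 4.2 and 5.19), were lower.

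The share of si-FTO-only regions varied among chromosomes, while their transcript catalogues were close to those of all peaks. Among chromosomes that held one, their share of the merged regions ran from 1.577% on chromosome 14 (7 of 444) to 4.582% on chromosome 20 (17 of 371), beside 2.92% of all merged regions. Chromosome 19 had 16 of 884 (1.81%), and chromosome 1 held the most, 41. This variation was not tested. Of the member peaks 82.19% were listed under a RefSeq transcript, 14.12% under an Ensembl and 3.68% under a UCSC transcript, beside 82.55%, 13.53% and 3.93% of all peaks.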

How the data were processed

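MeRIP-seq peak lists of 6 IP libraries (3 si-FTO, 3 si-NC) were analysed. The authors' peak identifiers name MACS as the caller, and positions are in hg19; the caller's settings are not given in the sources used. CASAVA 1.8 and BWA are named by the submitters' processing notes. Per peak, the authors deposited a score, -10 times log10 of the p-value, with 50 as the smallest. The fold enrichment that the authors deposited is a ratio of IP over input. The FDR was deposited by the authors in percent. Deposited peak length is in bp. Each list has 1 emptied line not analysed here. Depth is unknown, and the interval on a share covers counting only. Starts count from 0 in the lists and are given from 1.

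Intervals were merged at 1 bp of overlap with Python 3.11.15 and pandas 2.3.3, checked against bedtools 2.31.1 and tested on simulated lists. Percentiles are mid-ranks within a list, with ties given their mean rank. Members and gene lists were chosen with earlier results of these data known. No test was run, since the rule used the contrast. Regions were ordered by their lowest within-list percentile of fold enrichment; named were the first 12, the 5 longest, shortest, nearest to a si-NC peak and last, the first 5 with and without si-NC peaks, genes with several regions, up to 4 members of a list, the genes the paper names where they hold a region, and members of counts of 5 or fewer. A few regions that this order picks are not reported here. Genes named outside this rule, such as FOXJ2, CEP112, PRRC2C, AATF and the 13 genes with both patterns, were chosen after their values were seen. Motifs and distance to the stop codon need a genome of this build and were not analysed here, nor was RNA-seq expression.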

Additional observations from a re-analysis of the deposited data

How the results depend on the processing

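No paired analysis was possible because no result comes from a test. Of 13 alternatives, the one in which si-FTO peaks had to be in the upper 75 percent of score against whole si-NC lists was chosen after seeing the data. Leaving out each library gave 473 to 563 regions, 435 to 517 genes, median lengths of 406 to 439 bp, a common base in 99.82% to 100% of regions, si-NC peaks elsewhere in 52.87% to 56.87% of genes and a median fold percentile of 27.41 to 31.86.

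With at least 2 of 3 si-FTO lists required, 917 regions in 823 genes were found (median 433 bp, fold percentile 26.56). Within the upper 75 percent of fold enrichment there were 293 regions, with a median of 510 bp and a percentile of 49.70, and 145 of the 353 genes remained. Within the upper 75 percent of score there were 259 regions, with 470 bp and 48.55, si-NC peaks elsewhere in 47.58% of genes, and 114 of the 353 genes. A filtered si-NC list lacks low peaks, so regions can enter as well as leave. Against whole si-NC lists, 110 regions in 106 genes remained, with 535.5 bp and 46.67. At equal list length the percentile was 32.85, and without regions that had a si-NC peak within 500 bp it was 29.54, with a median of 410.5 bp. Merging at 100 bp of overlap changed none of the values. The main values were 380 regions, 353 genes, 423 bp, 55.24% and, over all member peaks, percentile 30.23. Unknown depth limits every absence from a list.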

Other observations

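Centrosome, kinetochore and nuclear envelope genes were seen among the regions in the gene annotation that the authors' lists carry. These groups were chosen after the values were seen and were not tested. Of 252 genes annotated to the centrosome 23 had a si-FTO-only region (9.13%), of 42 to the kinetochore 7 (16.7%), of 74 to the spindle 10 (13.5%) and of 62 to the nuclear envelope 11 (17.7%), beside 325 of the 6841 genes with any cell component annotation (4.75%). Related terms varied. Spindle pole had 4 of 67 (5.97%), nearer the share of all annotated genes. Mitotic nuclear division had 8 of 133 (6.02%) and cell cycle 5 of 106 (4.72%), beside 4.87% of genes with any process annotation. The cell cycle gene list of the report had 1 of 28 (3.57%). Higher were mitotic cell cycle with 22 of 172 (12.8%), G2/M transition with 10 of 70 (14.3%) and chromosome segregation with 6 of 38 (15.8%). The centromeric region of the chromosome had 6 of 37 (16.2%) and the centriolar satellite 4 of 13 (30.8%). The groups overlap. Most of the centrosome genes, 17 of 23, had si-NC peaks elsewhere in all 3 lists, their 24 regions had a median length of 292.5 bp, and the median of the lowest fold percentile was 10.16, lower than the 18.8 of all 380 regions.

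PLK4 stood highest among the centrosome genes, followed by ROCK2 and PCNT, which encodes the pericentriolar scaffold pericentrin. PCNT had 8.16, 10.07 and 9.72 in si-FTO 1, 2 and 3, in a gene with 36 si-NC peaks over the 3 lists. CEP170 had 8.01, 7.54 and 7.28. Lower down were CEP350 (5.11, 5.07 and 5.72), the satellite scaffold gene PCM1 (4.96, 3.99 and 6.11) and CEP290, a ciliary transition zone gene, at 3.27, 2.57 and 2.93. The kinetochore genes included the motor gene CENPE (7.13, 6.59 and 5.03), CENPC (4.79, 4.67 and 5.44) and CENPF, which had regions 1132 bp apart at 6.63, 5.56 and 5.64 and at 4.52, 3.79 and 2.97. Genes annotated to the nucleus, the broadest of these terms, had 122 of 2633 (4.63%).

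Of 14 genes of propanoate metabolism with a peak 4 had a region (28.6%), beside 118 of the 2388 genes with any pathway annotation (4.94%); this term too was chosen after the values were seen. ACACB was the highest, followed by HIBCH, a valine breakdown enzyme gene, at 6.4, 5.16 and 6.92, ABAT, at 7.03, 5.11 and 5.98, and MLYCD, which encodes malonyl-CoA decarboxylase, at 5.24, 3.64 and 4.83. HIBCH, ABAT and MLYCD had no si-NC peak.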
